A study of Mus musculus with 18 samples.

Results

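ABC transporters are membrane proteins that use ATP to move substrates across a membrane, together with a few soluble relatives that carry the same ATP-binding domains. The 50 genes whose symbols run from Abca to Abcg followed by a number were taken by a rule on names, out of 55421 mouse genes in the deposited tables. Earlier results of these data were known when members and roles were chosen. By known role they fall into 12 drug and organic anion efflux pumps, 18 lipid and sterol transporters, 9 organelle transporters, 2 channel regulators, 4 ribosome and translation factors and 5 other or little known members. Of the 50, 38 passed the filter on low counts and were tested, and 12 did not. Genes of the superfamily with other symbols, such as Cftr, Tap1 and Tap2, are not members and are described near the end.

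RNA was measured by polyA RNA sequencing in 18 libraries, as replicates A, B and C on each of days 0, 1, 2, 4, 7 and 14. All groups shared the same origin: kidneys of wild type female C57BL/6 mice (C57BL/6J in the culture protocol), 6 weeks old, given no treatment. Tubules were freed with collagenase, enriched on a Percoll gradient and plated on ordinary tissue culture plastic, where they stayed for up to 14 days with no passage. Day 0 is the isolated tubule before culture, and the groups differ only in the day of culture. Replicates are labelled as biological, with no word on separate animals or platings, so the p-values measure the spread between these libraries, which may be technical. A gradient fraction can hold other kidney cells, so markers of 7 cell types are given where they move with a result.

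In the kidney, the proximal tubule takes up organic anions, cations and drugs from blood and passes them into urine, and ABC pumps of the brush border carry out much of the exit step. Members of the A subfamily and some of the G subfamily move cholesterol and phospholipids. The D subfamily serves peroxisomes and lysosomes, part of the B subfamily serves mitochondria, and the E and F subfamilies have no membrane span and act on ribosomes and translation.

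Libraries held 23799559 to 37579097 estimated counts. Levels are given in CPM, counts relative to the library size scaled by the TMM method, with the mean ± SD over 3 libraries; levels of different genes are compared only in TPM, which corrects for transcript length. Differences are log2 fold changes ± SE from edgeR's quasi-likelihood test, and a gene is said to have risen or fallen where the Benjamini-Hochberg adjusted p over 18754 genes was under 0.05. The summed CPM of 8 proximal tubule markers ran from 17500 to 20300 on day 0, from 3550 to 7090 on day 1, from 625 to 1210 on day 2 and from 15.4 to 26.6 on day 14, so the markers that define the labelled cell type were low in the late libraries. The 4 loop of Henle markers summed to between 5190 and 6250 CPM on day 0 and between 5.7 and 13.5 on day 14. The 6 distal and collecting duct markers summed to between 1820 and 2330 CPM on day 0 and between 2.12 and 4.03 on day 14, with 2 of them at 0 by then. In bulk samples, fewer cells of a type and less RNA per cell cannot be told apart. Replicate C of day 7 stood apart: its mean correlation across genes with the day 4 libraries was 0.975, beside 0.952 and 0.953 for A and B, and with the day 14 libraries 0.948, beside 0.981 and 0.982. Results that rest on it are given with and without it.

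The ABC genes as a family moved mostly downward, while a minority rose. On day 1, 10 of the 38 tested members were higher than at isolation and 20 were lower, where 33.1% and 37.1% of all genes tested were called higher and lower. The 20 lower members are 52.6% of those tested. The members' median log2 fold change was -0.69, beside -0.01 over all genes. On day 2, 9 members were higher and 22 lower, beside 38.9% and 35.3% of all genes. On day 4, 8 were higher and 26 lower, beside 38.1% and 36.8%. On day 7, 10 were higher and 22 lower, beside 37.6% and 32.1%. On day 14, 11 were higher and 22 lower, beside 37.4% and 32.1%. The median over members was -0.99, -1.44, -0.96 and -0.88 on days 2, 4, 7 and 14, beside 0.14, 0.08, 0.16 and 0.16 over all genes. All 38 members differed among the 6 days, beside 89.8% of all genes.

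The split between rise and fall depended on the scaling. Without the TMM scaling (library sizes alone), all genes shifted upward against day 0 by a median of 0.3, 0.51, 0.49, 0.5 and 0.56 on the log2 scale on days 1, 2, 4, 7 and 14, and the day 4 split was 11 higher and 20 lower. On log2(TPM + 1) with limma, the shifts were 0.35, 0.55, 0.61, 0.66 and 0.77, and the splits against day 0 were 13 and 15, 10 and 15, 11 and 15, 10 and 14, and 14 and 14. Reported members whose log2 fold change against day 0 turned in direction under these scalings are given with their values below, and turns between culture days stand with the other dependences on processing. Without replicate C of day 7, which enters the shared estimate of the spread, day 1 gave 12 higher and 21 lower, and day 7 gave 10 and 23.

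**Figure D1:**
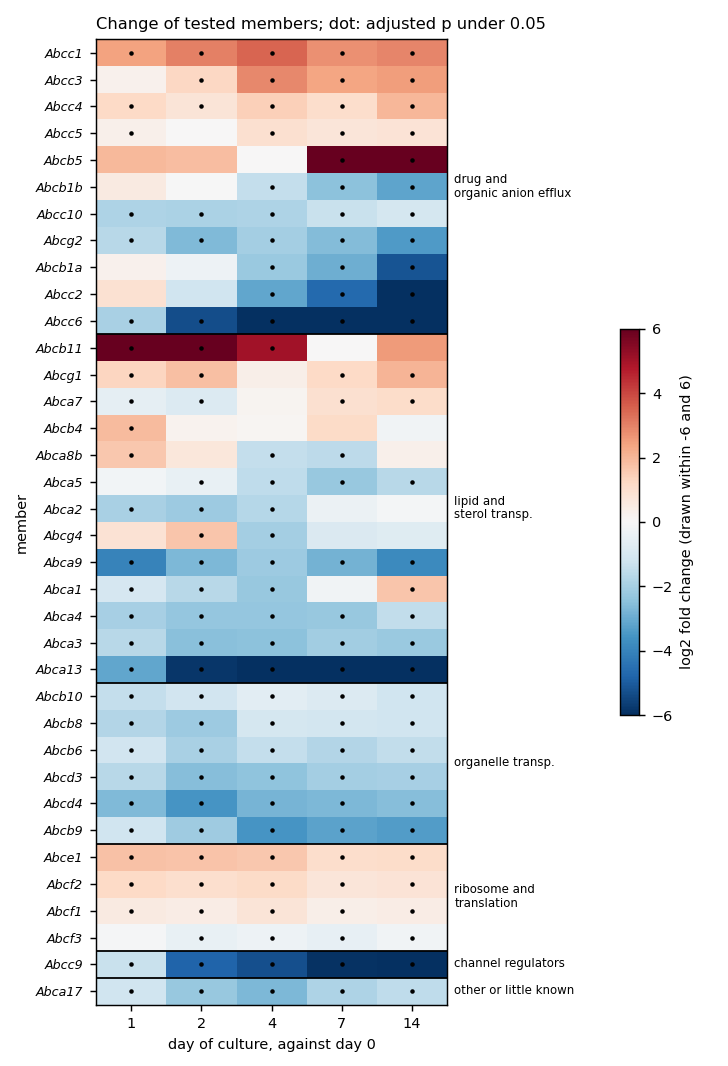
Heat map of log2 fold change against day 0 (colour scale, log2 units) for 36 of the 38 tested members, in rows grouped by role, on culture days 1, 2, 4, 7 and 14 in columns. Values beyond the ends of the colour scale are drawn in its end colours. The organelle rows are lower than at isolation throughout, and the efflux rows hold both deep falls and several rises.

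Per transcript length, the family's summed TPM was 1154 ± 42.1 on day 0, 817 ± 13.0 on day 2 and 1038 ± 48.6 on day 14, and its makeup changed. At isolation, Abcg2 alone held 39.7% of the family's TPM, at 458.5 ± 10.2 TPM, followed by Abcd3 with 17.0% and Abca3 with 7.91%. On day 2 the ribosome recycling factor Abce1 held the highest place, with 18.1%. On day 14 Abcc4 held it, at 230.8 ± 21.8 TPM and 22.2%, and Abcg2 had moved to the sixth place with 7.42%.

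By class, the efflux pumps held 49.0% ± 1.71, 37.9% ± 0.336, 44.2% ± 0.755 and 40.4% ± 1.36 of the family's TPM on days 0, 2, 4 and 14. Organelle members held 29.3% ± 1.44 on day 0, 12.8% ± 0.0991 on day 2 and 17.2% ± 0.369 on day 14. Lipid and sterol members held 10.4% ± 0.245, 4.22% ± 0.358 and 8.52% ± 0.403 on days 0, 4 and 14. Ribosome and translation members held 11.2% ± 0.622 on day 0, 44.0% ± 0.716 on day 2 and 33.8% ± 1.22 on day 14. These shares are descriptions without a test. The efflux share turned in direction with the measure: by estimated counts it was 40.35% on day 0 and 47.23% on day 14. With the same member of each class left out on every day, it was 28.41% and 47.35%. For the efflux class that member was Abcg2, which led at isolation and fell. Abcc4, which led on day 14, was kept, so this setting favours a rise of the share.

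**Figure D2:**
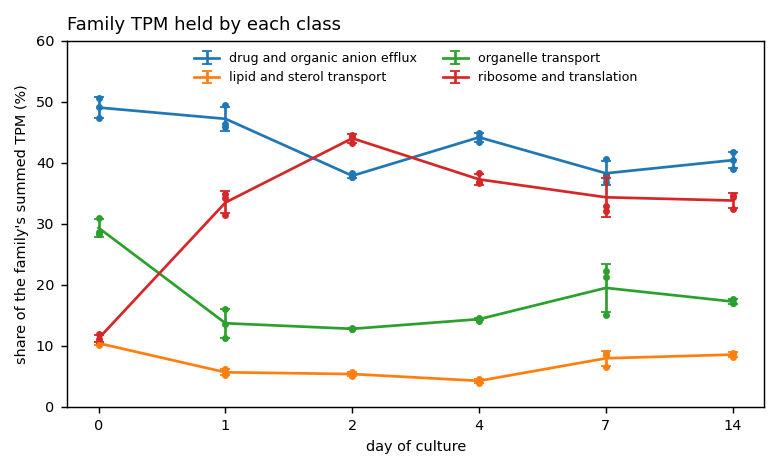
Share of the family's summed TPM (percent, vertical axis) held by each class on each day of culture (horizontal axis, days equally spaced), as the mean of 3 libraries with SD. Organelle members go from 29.3% at isolation to 17.2% on day 14, and ribosome and translation members from 11.2% to 33.8%.

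The drug and organic anion efflux pumps divided into a group that fell and a group that rose. On day 14, 6 of the 11 tested members (Abcg2, Abcc2, Abcb1a, Abcb1b, Abcc6 and Abcc10) were lower than at isolation and 5 (Abcc4, Abcc1, Abcc3, Abcc5 and Abcb5) were higher, with no member left uncalled. The lower and higher pumps of day 14 are 54.5% and 45.5% of those tested, beside 32.1% and 37.4% of the 18754 genes. The same 5 and 6 counts were obtained on day 7, beside 37.6% and 32.1% of the 18754 genes. On day 1 the counts were 3 higher and 3 lower, and 5 and 3 without replicate C of day 7. With all 18 libraries, each day 1 count is 27.3% of the 11 pumps, beside 33.1% higher and 37.1% lower over the 18754 genes. Whether the split of the pumps differs from that of other genes was not tested. The median log2 fold change over the 11 was 0.32 on day 1 and -1.05 on day 14. Of the 8 proximal tubule markers, 8 were lower on each culture day, with none at 0; their summed level was 17500 to 20300 CPM on day 0, 24.2 to 39.4 on day 4 and 15.4 to 26.6 on day 14, and their part in these falls was not tested.

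Abcg2 (chr6:58584523-58695676, plus strand, GRCm38), the breast cancer resistance protein, exports urate and many drugs across the brush border. It had the highest TPM of any member at isolation and fell on each culture day. Abcg2 measured 928, 930 and 939.6 CPM on day 0, 291, 352 and 252 on day 1, and 148, 129 and 168 on day 2 (replicates A, B and C in that order, here and below). Later it measured 221, 222 and 248 CPM on day 4, 139.8, 134 and 184 on day 7, and 82.1, 90.7 and 90.3 on day 14. The day 0 libraries all lay above every cultured library, and the day 4 libraries lay above those of day 2. Abcg2 had a log2 fold change of -1.64 ± 0.14 on day 1 (adjusted p 2.56e-08), -2.65 ± 0.14 on day 2 (adjusted p 1.36e-10) and -3.41 ± 0.15 on day 14 (adjusted p 1.13e-11). Between days 2 and 4 it rose by 0.64 ± 0.13 (adjusted p 0.00128).

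Abcc2 (chr19:43782192-43840740, plus strand), also known as MRP2, is an apical exporter of glutathione and glucuronide conjugates. It was high through day 1 and then went almost to zero. Abcc2 measured 265, 307 and 249.6 CPM on day 0, 499, 586 and 468 on day 1, and 150.5, 79.01 and 127 on day 2. It then measured 42.3, 21.1 and 30.5 CPM on day 4, 4.09, 1.74 and 27.2 on day 7, and 2.49, 0.997 and 1.79 on day 14. Every day 1 library lay above every day 0 library, but the difference of 0.92 ± 0.59 did not pass the test (adjusted p 0.173); without replicate C of day 7 in the model the adjusted p was 0.00517, and with only the libraries of days 0 and 1 it was 3.49e-05. That library held 27.2 CPM of Abcc2, beside 4.09 and 1.74 in A and B. Abcc2 had fallen by day 4, with a log2 fold change of -3.13 ± 0.64 (adjusted p 0.000327), and on day 14 it was at -7.27 ± 0.80 (adjusted p 6.46e-07).

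Abcb1a (chr5:8660077-8748575, plus strand) and Abcb1b (chr5:8798147-8866315, plus strand) are the rodent pair that stands for human MDR1, the P-glycoprotein of multidrug resistance. Their sequences are close, so the split of reads between them is uncertain. Abcb1a measured 18.4, 21.7 and 18.9 CPM on day 0, 24.6, 25.6 and 20.9 on day 1, and 16.1, 13.96 and 17.6 on day 2. Later values were 5.54, 4.16 and 3.06 CPM on day 4, 0.842, 1.17 and 5.93 on day 7, and 0.497, 0.677 and 0.456 on day 14. Abcb1b measured 46.9, 40.7 and 31.3 CPM on day 0, 60.5, 52.8 and 62.1 on day 1, and 40.02, 25.99 and 50.6 on day 2. Abcb1a overlapped day 0 on day 1 and lay just under it on day 2, and Abcb1b lay above day 0 on day 1 and overlapped it on day 2. Later Abcb1b values were 15, 15.6 and 13.2 CPM on day 4, 4.21, 2.48 and 14.8 on day 7, and 4.66, 4.45 and 4.17 on day 14. With all 18 libraries in the model, neither gene passed the test on day 1 or 2. Replicate C of day 7, the highest of its day for both genes, enters the shared estimate of the spread. Without it, the count over all efflux pumps called higher on day 1 went from 3 to 5, with Abcc2 among those added. The count called lower on day 2 went from 3 to 4. These are counts of the class and not of this pair. On day 14 the log2 fold change was -5.18 ± 0.57 for Abcb1a (adjusted p 6.07e-07) and -3.16 ± 0.46 for Abcb1b (adjusted p 1.23e-05). The day 4 fall of Abcb1b, -1.44 ± 0.42 (adjusted p 0.00556), was lost under 4 of 28 alternatives: it was -0.95 with library sizes alone (adjusted p 0.0558) and -0.50 on log2(TPM + 1) (adjusted p 0.273, or 0.385 with no filter). The pair is also expressed by endothelium, whose 6 markers summed to between 133 and 178 CPM on day 0, between 132 and 230 on day 1, between 24 and 29.9 on day 4 and between 2.07 and 3.03 on day 14, with 6 of 6 lower on day 14 and none at 0. In replicate C of day 7 that sum was 42 CPM, beside 6.88 and 9.85 in A and B. The part of these markers in the result was not tested.

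Abcb1b made up 72.7% ± 3.34, 76.7% ± 4.61, 84.3% ± 3.42, 74.8% ± 8.45 and 90.74% ± 5.602 of the pair's TPM on days 0, 2, 4, 7 and 14. By estimated counts the shares were 66.5% ± 4.87, 70.2% ± 4.66, 77.7% ± 4.22, 74.2% ± 8.07 and 89.1% ± 1.99 on these days. The mean of day 7 lay between those of days 0 and 4 (two-sided exact permutation p against day 0 of 0.7 by TPM and 0.3 by counts). On days 4 and 14 all 3 libraries lay above all 3 of day 0, and the two-sided exact permutation p of 0.1 was the smallest that 3 libraries against 3 can give (0.25 after adjustment over 5 days). On day 1 the share by TPM was 77.8%, 73.2% and 23.5% in replicates A, B and C, while by counts it was 71.1%, 67.3% and 74.9%, and Abcb1a was listed at 72.5 TPM in replicate C with an estimated count of 576, beside 6.29 and 6.15 TPM with counts of 694 and 598 in A and B.

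Abcc6 (chr7:45967555-46030302, minus strand), a liver and kidney transporter linked to pseudoxanthoma elasticum, was not detectable by day 4. Abcc6 measured 23.2, 22.7 and 17.7 CPM on day 0, 5.31, 6.76 and 4.53 on day 1, and 0.828, 0.485 and 0.269 on day 2. On day 4 no library held a count, so its level was at least 648-fold lower than at isolation, with a floor of 3 counts over the group. Over the 3 libraries of a day it had 2 counts on day 7 and 1 on day 14, and in those libraries it measured 0.0601, 0 and 0 CPM on day 7 and 0, 0 and 0.0326 on day 14. By day 1 the log2 fold change was already -1.94 ± 0.33 (adjusted p 0.000109). Abcc10 (chr17:46303221-46328352, minus strand), also known as MRP7, fell on day 1 and came part of the way back by day 14. Abcc10 measured 17.4, 17.2 and 17.3 CPM on day 0, 5.13, 4.79 and 4.68 on day 1, and 5.19, 5.04 and 3.57 on day 2. Later it measured 4.24, 4.97 and 4.97 CPM on day 4, 7.81, 7.54 and 5.102 on day 7, and 8.67, 7.94 and 8.504 on day 14. The day 0 libraries lay above all others, and the day 14 libraries above those of days 1, 2 and 4. Abcc10 had a log2 fold change of -1.83 ± 0.17 on day 1 (adjusted p 1.11e-07) and -1.05 ± 0.17 on day 14 (adjusted p 3.47e-05), where log2(TPM + 1) gave -0.13 (adjusted p 0.357).

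Among the pumps that rose, Abcc4 (chr14:118482692-118706219, minus strand), or MRP4, exports organic anions and cyclic nucleotides across the brush border. It was higher than at isolation on each culture day and became the member with the highest TPM by day 14. Abcc4 measured 192, 187 and 166 CPM on day 0, 412, 459.6 and 396 on day 1, and 300, 348 and 272 on day 2. It went on to 527, 460.3 and 479 CPM on day 4, 351, 384 and 412 on day 7, and 667, 733 and 799.8 on day 14. The day 14 libraries lay above all others, and the day 0 libraries below all others. Abcc4 had a log2 fold change of 1.22 ± 0.11 on day 1 (adjusted p 5.39e-08), 0.75 ± 0.11 on day 2 (adjusted p 9.14e-06) and 2.01 ± 0.11 on day 14 (adjusted p 1.37e-10). From day 7 to day 14 it rose by 0.94 ± 0.11 (adjusted p 9.23e-05).

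Abcc1 (chr16:14361558-14475737, plus strand), or MRP1, exports glutathione conjugates and leukotriene C4 across basolateral membranes. It had the strongest early rise of the efflux pumps. Abcc1 measured 24.6, 20.9 and 26.2 CPM on day 0, 124, 135 and 128 on day 1, and 199, 232 and 160.3 on day 2. It reached 306, 259 and 251 CPM on day 4, 168, 175 and 138 on day 7, and 168, 191 and 192 on day 14. All cultured libraries lay above all day 0 libraries, with the highest values on day 4. Abcc1 had a log2 fold change of 2.43 ± 0.14 on day 1 (adjusted p 4.12e-10), 3.51 ± 0.14 on day 4 (adjusted p 7.42e-12) and 2.94 ± 0.14 on day 14 (adjusted p 3.68e-11). Between days 4 and 7 its log2 fold change was -0.76 (adjusted p 0.000408).

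Abcc3 (chr11:94343295-94392997, minus strand), or MRP3, is a basolateral exporter of glucuronides and bile acids and rose later than Abcc1. Abcc3 measured 9.04, 7.24 and 17.9 CPM on day 0, 10.1, 15.1 and 16.1 on day 1, and 26.1, 30.4 and 24.1 on day 2. Subsequent values were 87.9, 78.97 and 79.8 CPM on day 4, 70.9, 69.99 and 33.95 on day 7, and 51.4, 74.3 and 69.6 on day 14. It was not called on day 1 (0.28 ± 0.31, adjusted p 0.436, or 0.0331 without replicate C of day 0), was higher on day 2 (1.25 ± 0.31, adjusted p 0.00196) and was highest on day 4 (2.86 ± 0.32, adjusted p 6.88e-07). Abcc5 (chr16:20331303-20426394, minus strand), or MRP5, an exporter of cyclic nucleotides, rose less. Abcc5 measured 37.2, 36.5 and 37.2 CPM on day 0, 48.2, 44.2 and 45.9 on day 1, and 41.6, 38.7 and 30.6 on day 2. From day 4 it measured 69.9, 69.97 and 74.3 CPM on day 4, 64.5, 71.9 and 44.7 on day 7, and 62.6, 65.9 and 69.7 on day 14, and all of these lay above the day 0 libraries. Abcc5 had a log2 fold change of 0.95 ± 0.14 on day 4 (adjusted p 1.16e-05) and 0.84 ± 0.14 on day 14 (adjusted p 4.91e-05). The small rise on day 1 (0.32 ± 0.14, adjusted p 0.0485) was lost under 14 of 28 alternatives, with an adjusted p of up to 0.133.

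Abcb5, known as a marker of limbal stem cells, had no count on day 0 or 4 and a summed count of 1 on each of days 1 and 2. It rose late, to a low level. Abcb5 measured 0.511, 0.602 and 0.1501 CPM on day 7 and 2.05, 1.64 and 0.847 on day 14. Its day 14 level was at least 34.6-fold higher than that of day 0 and its day 7 level at least 9.82-fold higher, with a floor of 3 counts over the group. The difference between days 7 and 14 (adjusted p 0.0475) was lost under 20 of 26 alternatives, with an adjusted p of up to 0.161. Abcc12 was not tested and reached at most 0.202 CPM in any library.

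**Figure D3:**
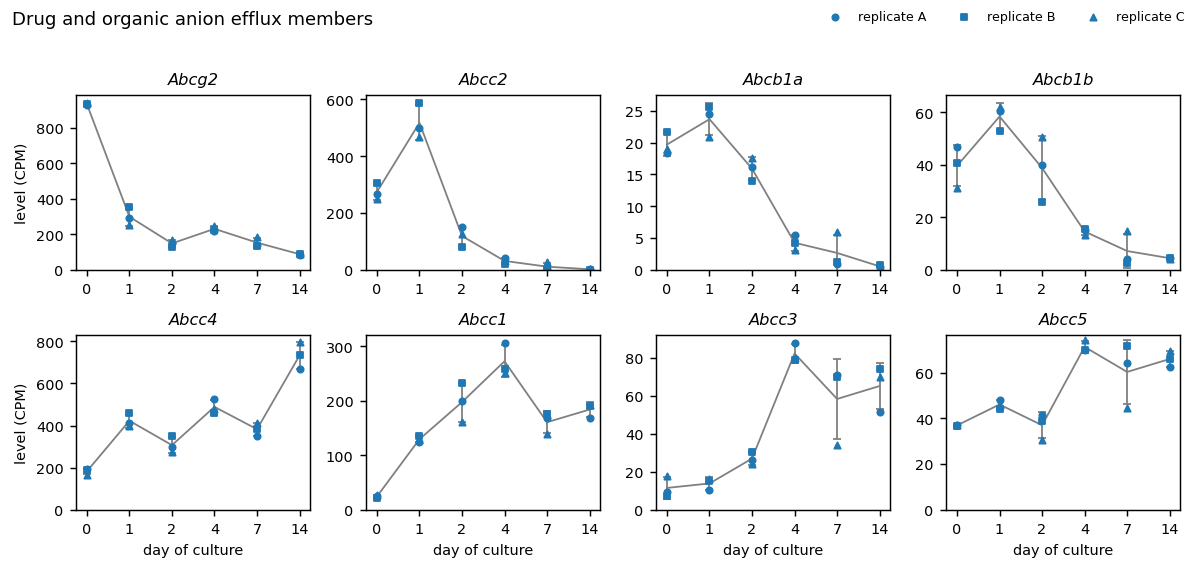
Level in CPM (vertical axes, each starting at 0) of 8 efflux pumps by day of culture (horizontal axes, days equally spaced). Points are single libraries by replicate, and lines and bars are the mean and SD of 3 libraries. Abcg2 and Abcc2 end near the bottom of their axes while Abcc4 ends at its highest level.

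Promoter sequence is shown for a pair of organic anion pumps, chosen after their values were seen, that ended in opposite directions: Abcc4 and Abcc2. The sequences are the 250 bases before the start site in RefSeq (GRCm38.p6), written 5′ to 3′ on the gene's strand. Capitals mark the core of the antioxidant response element (TGACNNNGC, searched on both strands), the motif through which NRF2 is known to induce conjugate exporters. Abcc4 has 2 RefSeq windows, at chr14:118676932-118677181 and chr14:118706220-118706469, both on the minus strand, and Abcc2 has 1, at chr19:43782058-43782307 on the plus strand.
Abcc4 window 1: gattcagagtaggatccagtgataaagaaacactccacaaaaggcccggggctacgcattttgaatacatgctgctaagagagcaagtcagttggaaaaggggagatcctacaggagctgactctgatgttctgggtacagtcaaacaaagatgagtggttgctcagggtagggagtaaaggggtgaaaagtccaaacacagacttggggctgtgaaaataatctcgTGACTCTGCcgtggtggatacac
Abcc4 window 2: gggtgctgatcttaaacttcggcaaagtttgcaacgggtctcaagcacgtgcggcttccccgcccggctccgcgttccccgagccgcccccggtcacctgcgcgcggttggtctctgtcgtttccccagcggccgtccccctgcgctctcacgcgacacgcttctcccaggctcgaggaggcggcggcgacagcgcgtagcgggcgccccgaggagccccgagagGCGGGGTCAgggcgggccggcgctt
Abcc2: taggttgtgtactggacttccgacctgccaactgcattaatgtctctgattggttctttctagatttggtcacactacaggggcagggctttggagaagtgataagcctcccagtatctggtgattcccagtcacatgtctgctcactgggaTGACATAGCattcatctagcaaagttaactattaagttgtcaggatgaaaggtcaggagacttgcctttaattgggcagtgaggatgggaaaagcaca
The core is present in Abcc4, which rose, and in Abcc2, which fell after day 1. Over whole windows, which also hold the 50 bases after the start site, it was found in 7 of 45 windows of 38 members (15.6%), beside 12.4% of all 32851 windows in the table. Besides Abcc2 and Abcc4 these belonged to Abcb1a, Abcc10 and Abca8b. The AP-1 motif TGANTCA was in 0 member windows, beside 7.81% of all windows. The DR4 repeat of LXR (2 copies of AGGTCA with 4 bases between) was also in none, beside 0.0152% of all windows. A match is a description of letters, not of binding.

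The lipid and sterol transporters fell early, and several came back or overshot by day 14. Of 13 tested members, 7 were lower and 4 higher on day 1, beside 37.1% and 33.1% of all genes. On day 4, 9 were lower and 1 higher, beside 36.8% and 38.1%. On day 14, 5 were lower (Abca3, Abca4, Abca5, Abca9 and Abca13) and 3 higher (Abca1, Abca7 and Abcg1). These are 38.5% and 23.1% of those tested, beside 32.1% and 37.4% of all genes. With library sizes alone the day 14 counts were 5 lower and 5 higher, and on log2(TPM + 1) they were 3 lower and 5 higher. The median log2 fold change over the 13 was -1.71 on day 4 and -0.20 on day 14. Between days 4 and 14, 6 were higher (Abca1, Abca2, Abca4, Abca7, Abca8b and Abcg1) and 1, Abcb11, lower, where 28.6% and 23.3% of all genes were. The Abca4 call was lost under 6 of 28 alternatives (adjusted p up to 0.188), all but one of them by leaving out a library: replicate A of day 2, B or C of day 4, or A or B of day 14. The Abcb11 call rests on 13 counts against 2, a ratio of 6.51 with a counting interval of 1.47 to 59.4, and was lost under 9 of 25 alternatives (adjusted p up to 0.42), among them leaving out any library of day 4.

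Abca1 (chr4:53030787-53159895, minus strand) loads cholesterol and phospholipid onto apolipoprotein A-I and is the entry step to HDL. It fell through day 4 and then rose above its level at isolation. Abca1 measured 22.7, 36.01 and 25.5 CPM on day 0, 15.2, 13.3 and 13.6 on day 1, and 8.12, 7.39 and 11.2 on day 2. It then measured 7.47, 3.83 and 5.92 CPM on day 4, 29.3, 28.02 and 16.1 on day 7, and 84.2, 75.9 and 104 on day 14. The day 14 libraries lay above all others and the day 4 libraries below those of days 0, 1, 7 and 14. Abca1 had a log2 fold change of -2.29 ± 0.27 on day 4 (adjusted p 1.09e-06) and 1.65 ± 0.26 on day 14 (adjusted p 2.68e-05). From day 4 to day 14 it rose by 3.94 ± 0.28 (adjusted p 1.17e-07).

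Abcg1 (chr17:31057675-31117988, plus strand), which passes cholesterol on to HDL particles, also rose to day 14 but had an earlier peak on day 2. Abcg1 measured 3.27, 3.35 and 3.13 CPM on day 0, 7.46, 8.73 and 7.76 on day 1, and 9.901, 9.297 and 14.5 on day 2. It then measured 4.33, 3.58 and 4.58 CPM on day 4, 6.22, 7.83 and 8.21 on day 7, and 10.2, 15.1 and 14.6 on day 14. Abcg1 had a log2 fold change of 1.79 ± 0.20 on day 2 (adjusted p 7.05e-07), -1.43 ± 0.20 from day 2 to day 4 (adjusted p 3.21e-05) and 2.03 ± 0.20 on day 14 against day 0 (adjusted p 1.77e-07). Both genes are known from macrophages as well. The 6 macrophage markers summed to between 26.7 and 63.4 CPM on day 0, between 7.93 and 14.7 on day 2, between 10.3 and 14.3 on day 4 and between 26.7 and 30.5 on day 14, with none at 0 and 2 of 6 higher on day 14 than on day 4. Against day 0, 3 of 6 were lower on day 14 and 0 higher. Csf1r and Ptprc had means of 17.71 and 6.542 CPM on day 14, beside 11.96 and 4.369 on day 0. C1qa, C1qb, Adgre1 and Lyz2 had 0.1862, 0.3365, 0.06517 and 4.122 CPM, beside 3.576, 6.865, 2.392 and 12.99. The part of these markers in the result was not tested.

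Abca7 (chr10:79996494-80015572, plus strand), a phospholipid transporter that also takes part in phagocytosis, fell to day 2 and then rose. Abca7 measured 17.4, 18.7 and 18.9 CPM on day 0, 11.4, 13.8 and 12.7 on day 1, and 10.8, 11.6 and 8.69 on day 2. It went on to 21.4, 18.6 and 21.6 CPM on day 4, 36.7, 41.7 and 29.6 on day 7, and 35.8, 39.1 and 41.4 on day 14. Every day 14 library lay above every day 0 library. Abca7 had a log2 fold change of -0.82 ± 0.14 on day 2 (adjusted p 4.67e-05) and 1.08 ± 0.13 on day 14 (adjusted p 2.27e-06). The day 2 fall was not called in limma, where it was -0.17 on log2(TPM + 1) (adjusted p 0.224, or 0.305 with no filter), and the day 1 fall was lost there (adjusted p up to 0.503) and with library sizes alone (0.111). Abca2 (chr2:25428703-25448540, plus strand), a lipid transporter of late endosomes and lysosomes, fell and recovered. Abca2 measured 85.4, 95.2 and 88.7 CPM on day 0, 21.9, 27.3 and 21.4 on day 1, and 21.5, 21.9 and 15.6 on day 2. It recovered to 32.2, 25.6 and 24.5 CPM on day 4, 79.4, 81.4 and 51.2 on day 7, and 78.96, 80.8 and 89.2 on day 14. Abca2 had a log2 fold change of -2.19 ± 0.18 on day 2 (adjusted p 1.42e-08) and rose by 1.59 ± 0.17 from day 4 to day 14 (adjusted p 3.34e-06). On day 14 it was -0.11 ± 0.17 against day 0 (adjusted p 0.562), and it was called higher, at 0.45, with library sizes alone and at 0.66 on log2(TPM + 1).

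Abca3 (chr17:24351950-24410201, plus strand), which fills lamellar bodies with phospholipid in lung, had the highest TPM of the lipid class at isolation (91.3 ± 4.07 TPM) and did not recover. Abca3 measured 581, 642 and 589.9 CPM on day 0, 183, 228 and 157 on day 1, and 113, 99.3 and 105 on day 2. Afterwards it measured 126, 103 and 105 CPM on day 4, 159, 149 and 115 on day 7, and 134, 124 and 135 on day 14. The day 0 libraries lay far above all others. Abca3 had a log2 fold change of -1.67 ± 0.14 on day 1 (adjusted p 2.27e-08) and -2.21 ± 0.14 on day 14 (adjusted p 7.78e-10). Abca13 (chr11:9191942-9684259, plus strand), a very large member, showed the deepest fall of the class. Abca13 measured 65.7, 48.7 and 33.9 CPM on day 0, 8.42, 7.02 and 1.78 on day 1, and 0.923, 0.784 and 0.842 on day 2. It was down to 0.222, 0.13 and 0.141 CPM on day 4, 0.421, 0.142 and 0.07503 on day 7, and 0.249, 0.107 and 0.0978 on day 14. Abca13 had a log2 fold change of -3.11 ± 0.44 on day 1 (adjusted p 1.15e-05) and -8.29 ± 0.63 on day 14 (adjusted p 6.68e-09).

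Abca5 (chr11:110269369-110337716, minus strand), a lysosomal lipid transporter, fell later than the others. Abca5 measured 26.7, 31.5 and 23.97 CPM on day 0, 24.1, 28.9 and 19.8 on day 1, and 21.7, 19.2 and 20.3 on day 2. From day 4 it measured 10.8, 8.71 and 8.81 CPM on day 4, 5.17, 5.17 and 6.79 on day 7, and 8.27, 7.87 and 9.87 on day 14. The values of day 1 overlapped those of day 0, and those from day 4 on lay below. Abca5 had a log2 fold change of -1.54 ± 0.16 on day 4 (adjusted p 3.34e-07) and -1.66 ± 0.16 on day 14 (adjusted p 1.68e-07). On day 1 it was not called (adjusted p 0.325), and on log2(TPM + 1) it was called higher, at 0.46 (adjusted p 0.033). The day 4 fall was not called on log2(TPM + 1) with no filter (adjusted p 0.0631). The day 2 value, -0.42 ± 0.16 (adjusted p 0.0241), turned to 0.09 with library sizes alone and 0.42 on log2(TPM + 1), and was not called without replicate B of day 0 (adjusted p 0.123), B of day 2 (0.0773) or C of day 2 (0.0592). Abca4 (chr3:122044443-122180123, plus strand), the retinoid lipid flippase of photoreceptors, measured 12.1, 8.79 and 10.8 CPM on day 0, 3.01, 2.95 and 1.92 on day 1, and 2.39, 1.75 and 2.09 on day 2. It then measured 3.13, 1.397 and 1.87 CPM on day 4, 2.404, 2.27 and 1.76 on day 7, and 4.47, 4.95 and 2.12 on day 14. All day 0 libraries lay above all others, and its log2 fold change was -2.01 ± 0.33 on day 1 (adjusted p 4.4e-05).

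Members under 10 CPM on every day moved as well. Abcb11, the bile salt export pump of hepatocytes, had no count on day 0, measured 0.743, 0.257 and 0.254 CPM on day 1 and 2.897, 2.203 and 2.36 on day 2, and had no count on day 7. Its day 2 level was at least 57.1-fold higher than at isolation. Abca8b peaked on day 1, at 5.41 ± 1.46 CPM beside 1.75 ± 0.458 on day 0 (adjusted p 0.000912), with the closely similar Abca8a able to share reads. Abcb4, the phosphatidylcholine exporter of bile, also rose on day 1, to 3.41 ± 0.377 CPM from 0.905 ± 0.198 (adjusted p 0.0161), but was not called without replicate A or B of day 0 (adjusted p 0.0527 and 0.0507). Abca9 fell from 2.68 ± 0.823 CPM on day 0 to 0.164 ± 0.124 on day 1 (adjusted p 0.000182). Abcg4 stayed at or under 0.478 CPM as a daily mean, higher on day 2 (adjusted p 0.0041) and lower on day 4 (adjusted p 0.0182, or 0.0727 without replicate C of day 0, 0.0738 with library sizes alone and 0.971 on log2(TPM + 1) with no filter). The untested lipid members reached at most 0.261 CPM (Abca6), 0.719 CPM (Abca8a), 0.1303 CPM (Abca12), 0.667 CPM (Abcg5) and 0.0947 CPM (Abcg8) in any library.

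**Figure D4:**
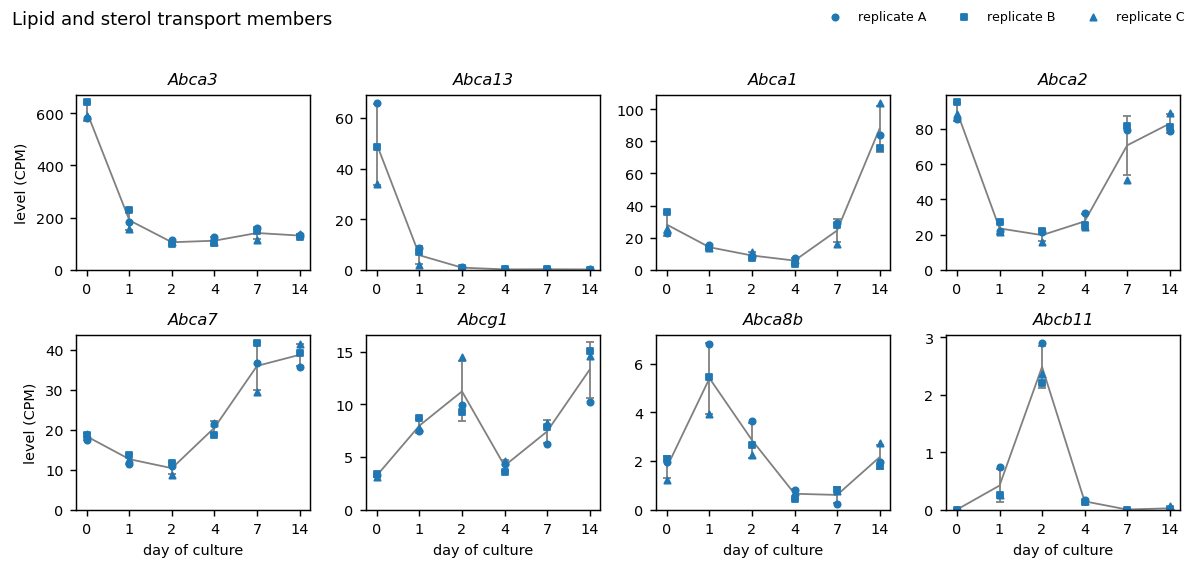
Level in CPM (vertical axes, each starting at 0) of 8 lipid and sterol transporters by day of culture (horizontal axes, days equally spaced), with single libraries as points and the mean and SD of 3 libraries as lines and bars. Abca1, Abca2 and Abca7 dip and return, while Abca3 and Abca13 stay down.

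The organelle transporters fell together. All 8 tested members were lower than at isolation on days 1, 2, 4 and 14, and 7 of 8 on day 7. None was higher. Over all genes, 37.1%, 35.3%, 36.8%, 32.1% and 32.1% were lower on days 1, 2, 4, 7 and 14. The members' median log2 fold change was -1.53, -2.02, -1.24, -1.42 and -1.34 on these days. The TMM scaling bears on this count: with library sizes alone it was 8, 8, 5, 6 and 6 of 8 on days 1, 2, 4, 7 and 14, and on log2(TPM + 1) it was 8, 7, 5, 5 and 6, with 1 member called higher on days 4, 7 and 14. Without replicate C of day 7, Abcd2 also passed the filter and the lower count was 9, 9, 9, 8 and 9 of 9. The 8 proximal tubule markers were all lower on the same days, and their part in the result was not tested. Between days 2 and 4 there was a partial return, with 6 of 8 higher, among them Abcb6, Abcb8, Abcb10 and Abcd4, and Abcb9 lower. Over all genes, 19.4% were higher and 22.1% lower between these days.

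Of the peroxisomal members, Abcd3 (chr3:121758774-121815302, minus strand), or PMP70, imports branched and long-chain acyl-CoAs and was second in TPM among all members at isolation (196 ± 22.1 TPM). Abcd3 measured 660.5, 746 and 589 CPM on day 0, 199, 274 and 164 on day 1, and 114, 111 and 117 on day 2. It then measured 131, 118 and 123 CPM on day 4, 177, 179 and 124 on day 7, and 162, 164 and 172 on day 14. Every day 0 library lay above every later one. Abcd3 had a log2 fold change of -1.65 ± 0.16 on day 1 (adjusted p 2.01e-07), -2.54 ± 0.17 on day 2 (adjusted p 1.42e-09) and -2.00 ± 0.16 on day 14 (adjusted p 1.89e-08).

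Both lysosomal members of the organelle class fell steeply. Abca2 and Abca5, also of lysosomes, are counted in the lipid class, and Abca2 recovered by day 14. Abcd4 (chr12:84601464-84617413, minus strand) takes part in the release of vitamin B12 from lysosomes. Abcd4 measured 80.1, 98.7 and 80.2 CPM on day 0, 11.4, 20.5 and 9.68 on day 1, and 8.53, 6.38 and 7.14 on day 2. Later values were 14.2, 11.5 and 11.7 CPM on day 4, 15.3, 12.2 and 13.1 on day 7, and 13.98, 15.9 and 14.7 on day 14. Abcd4 had a log2 fold change of -3.55 ± 0.23 on day 2 (adjusted p 1.16e-09) and -2.54 ± 0.22 on day 14 (adjusted p 3.33e-08). Abcb9 (chr5:124061530-124095798, minus strand), a lysosomal peptide transporter, measured 20.4, 18.7 and 18.8 CPM on day 0, 8.74, 9.93 and 6.201 on day 1, and 5.03, 3.47 and 4.75 on day 2. It ended at 1.898, 1.59 and 1.44 CPM on day 4, 2.404, 2.44 and 1.39 on day 7, and 1.46, 1.995 and 2.25 on day 14. The log2 fold change of Abcb9 was -1.22 ± 0.23 on day 1 (adjusted p 0.000177) and -3.54 ± 0.25 on day 4 (adjusted p 2.99e-09), and it fell further between days 2 and 4.

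Of the mitochondrial members, Abcb8 (chr5:24393663-24410054, plus strand), which bears on mitochondrial iron export, fell and came part of the way back. Abcb8 measured 100.5, 102 and 102 CPM on day 0, 30.7, 36.8 and 21.6 on day 1, and 21.6, 23.3 and 22.5 on day 2. It then measured 48.2, 50.2 and 47.6 CPM on day 4, 55.9, 52.99 and 34.6 on day 7, and 42.4, 43.7 and 45.2 on day 14. Abcb8 had a log2 fold change of -2.17 ± 0.17 on day 2 (adjusted p 1.16e-08), and from day 2 to day 4 it rose by 1.11 ± 0.17 (adjusted p 8.18e-05). Abcb6 (chr1:75171717-75180392, minus strand), linked to porphyrin transport, measured 74.5, 74.9 and 73.3 CPM on day 0, 32.1, 39.5 and 28.2 on day 1, and 20.6, 20.2 and 17.9 on day 2. Later Abcb6 measured 28.2, 27.5 and 26.8 CPM on day 4, 23.9, 28.02 and 13.6 on day 7, and 26.5, 28.1 and 25.97 on day 14. All its day 0 libraries lay above the rest, and its log2 fold change was -1.93 ± 0.19 on day 2 (adjusted p 1.35e-07).

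Abcb10 (chr8:123952459-123983122, minus strand), an inner membrane protein needed for heme synthesis in red cell precursors, measured 68.6, 70.5 and 68.9 CPM on day 0, 24.3, 30.2 and 23.6 on day 1, and 33.01, 29.9 and 30.6 on day 2. Later Abcb10 measured 48.4, 44.2 and 42.1 CPM on day 4, 40.7, 38.8 and 38.9 on day 7, and 29.7, 29.99 and 30.9 on day 14. It was lower than at isolation on each day, with log2 fold changes of -1.41 ± 0.09 on day 1 (adjusted p 1.31e-09) and -1.20 ± 0.09 on day 14 (adjusted p 5.29e-09), though its day 4 value of -0.63 ± 0.09 (adjusted p 7.44e-06) was -0.13 with library sizes alone (adjusted p 0.0814) and 0.00383 on log2(TPM + 1) (adjusted p 0.972). Abcd2, another peroxisomal member, was not tested; it reached 0.615 CPM at most, in a day 0 library.

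**Figure D5:**
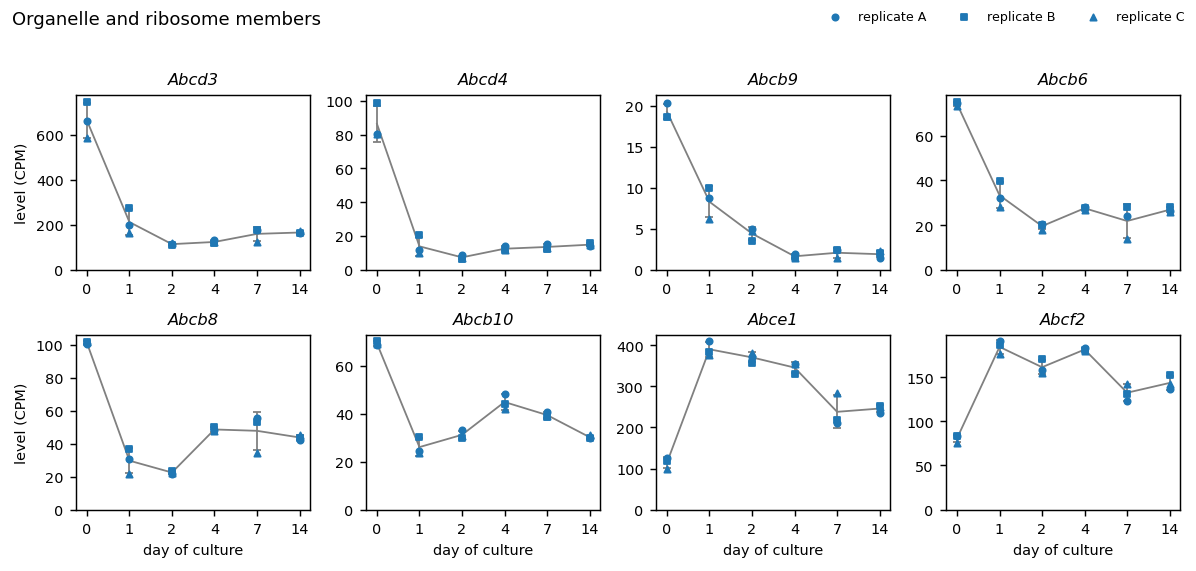
Level in CPM (vertical axes, each starting at 0) of 6 organelle transporters and 2 ribosome and translation factors by day of culture (horizontal axes, days equally spaced), with single libraries as points and the mean and SD of 3 libraries as lines and bars. The organelle members are highest on day 0, whereas Abce1 and Abcf2 are lowest there.

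The ribosome and translation members rose, except Abcf3. Abce1, Abcf1 and Abcf2 were higher than at isolation on all 5 culture days, where 33.1% to 38.9% of all genes were. The median log2 fold change of the 4 members was 0.88 on day 1 and 0.64 on day 14. Abce1 (chr8:79683462-79711740, minus strand) splits ribosomes after termination. Abce1 measured 125, 119 and 99.5 CPM on day 0, 410.3, 385 and 377 on day 1, and 372, 358 and 383 on day 2. It then measured 354, 330.3 and 354 CPM on day 4, 212, 218 and 285 on day 7, and 235, 253 and 250.4 on day 14. The day 0 libraries lay below all others, and the values of days 7 and 14 lay below those of days 1, 2 and 4. Abce1 had a log2 fold change of 1.77 ± 0.11 on day 1 (adjusted p 8.23e-10) and 1.11 ± 0.11 on day 14 (adjusted p 1.16e-07).

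Abcf2 (chr5:24565345-24577467, minus strand) measured 82.8, 83.5 and 75.6 CPM on day 0, 191, 186 and 176 on day 1, and 158, 170.3 and 155 on day 2. Later Abcf2 measured 183, 181 and 179.7 CPM on day 4, 123, 131 and 143 on day 7, and 136, 152 and 142 on day 14. Abcf2 had a log2 fold change of 1.19 ± 0.07 on day 1 (adjusted p 8e-10). Abcf1 (chr17:35956819-35969761, minus strand), which binds initiation factor eIF2, rose less. Abcf1 measured 87.6, 91.7 and 77.97 CPM on day 0, 122, 136 and 122 on day 1, and 114, 126 and 107 on day 2. Later Abcf1 measured 146, 152 and 138 CPM on day 4, 104, 109 and 117 on day 7, and 112, 123 and 116 on day 14. Abcf1 had a log2 fold change of 0.76 ± 0.08 on day 4 (adjusted p 4.5e-07). Abcf3 (chr16:20548577-20561379, plus strand) measured 76.3, 73.2 and 70.5 CPM on day 0, 69.7, 76.5 and 66.3 on day 1, and 53.3, 54.7 and 51.5 on day 2. Later Abcf3 measured 57.7, 59.9 and 57.8 CPM on day 4, 56.3, 53.4 and 49.3 on day 7, and 62.7, 65.8 and 59.4 on day 14. Abcf3 had log2 fold changes of -0.46 ± 0.07 on day 2 (adjusted p 2.23e-05) and -0.23 ± 0.07 on day 14 (adjusted p 0.00924), but its direction rested on the scaling on every culture day: on day 14 it was 0.33 with library sizes alone (adjusted p 8.5e-05) and 0.50 on log2(TPM + 1) (adjusted p 8.2e-05). The day 14 fall was also not called without replicate A of day 2 (adjusted p 0.0638), A of day 14 (0.0983) or C of day 14 (0.208).

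Abcc9, the SUR2 regulatory subunit of ATP-sensitive potassium channels in vascular smooth muscle and pericytes, fell until it was no longer detected. Abcc9 measured 5.96, 5.04 and 4.62 CPM on day 0, 1.91, 3.17 and 1.05 on day 1, and 0.127, 0.187 and 0.236 on day 2. It had no count on day 14, so it was at least 158-fold lower there than at isolation. The 6 fibroblast and pericyte markers summed to between 40.4 and 52.1 CPM on day 0 and between 80.8 and 114 on day 14, with 2 of 6 higher, 4 of 6 lower and none at 0. The higher ones were the collagen genes Col1a1, from a mean of 0.897 to 74.6 CPM, and Col3a1, from 2.67 to 21.3. Rgs5 went from 23.8 to 0.301 CPM and Pdgfrb from 13.3 to 4.36, and Pdgfra and Dcn were also lower. The part of these markers in the Abcc9 result was not tested. Abca17, a little known member, stayed under 1 CPM and was lower on each culture day, at 0.664 ± 0.181 CPM on day 0 and 0.232 ± 0.118 on day 14 (adjusted p 0.00307), but its day 14 value turned to 0.04 on log2(TPM + 1) with no filter. The other untested members reached at most 0.411 CPM (Abcc8), 0.236 CPM (Abca14), 0.0373 CPM (Abca15), 0.065 CPM (Abca16) and 0.392 CPM (Abcg3) in any library.

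Steps between successive days showed when members moved. From day 1 to day 2, 4 members rose and 14 fell, beside 17% and 17.5% of all genes, and with library sizes alone these were 6 and 11. From day 2 to day 4, 14 rose and 11 fell, beside 19.4% and 22.1%, and on log2(TPM + 1) they were 15 and 6. From day 4 to day 7, 6 rose and 8 fell, beside 22% and 15.9%; without replicate C of day 7 these were 9 and 12, with Abcb1a, Abcb1b and Abcc2 then called lower (adjusted p 4.45e-06, 7.85e-06 and 2.69e-06). From day 7 to day 14, 7 rose and 4 fell, beside 5.07% and 7.46%. Those that rose were Abca1, Abca5, Abca8b, Abcb5, Abcc4, Abcf3 and Abcg1, and those that fell were Abcb10, Abcb1a, Abcc2 and Abcg2. Without replicate C of day 7 the counts were 5 and 3, and with only the libraries of days 7 and 14 they were 2 and 0. Leaving out that replicate took the efflux pumps called lower from 3 to 1 and the organelle members from 1 to 2. In replicate C of day 7 Abcb1a measured 5.93 CPM, beside 0.842 and 1.17 in A and B. Abcc2 measured 27.2 CPM there, beside 4.09 and 1.74. From day 4 to day 14, 10 rose and 11 fell, beside 28.6% and 23.3%, and on log2(TPM + 1) these were 11 and 6.

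Genes that work with the ABC transporters are given from lists made by known function. Beside them, 37.1% of all genes were lower and 33.1% higher on day 1, 36.8% and 38.1% on day 4, and 32.1% and 37.4% on day 14. The uptake carriers that bring organic anions and cations into the tubule fell on every culture day, 8 of 8 tested, with a median log2 fold change of -2.29 on day 1 and -9.46 on day 14. Among them, the anion carrier Slc22a6 (OAT1) fell from 772 ± 92.7 CPM on day 0 to 0.0356 ± 0.0617 on day 14. Of 4 apical scaffold genes, which tether brush border transporters, 4 were lower on day 4 and 3 on day 14, but with library sizes alone and on log2(TPM + 1) the counts were 3 lower and 1 higher on day 4 and 2 lower and 1 higher on day 14. In this list Pdzk1 went from 2195 ± 254 to 3.08 ± 0.885 CPM. Of 13 conjugating enzymes, 8 were lower and 2 higher on day 14 (7 and 3 with library sizes alone, 7 and 4 on log2(TPM + 1)), and the glucuronosyltransferase Ugt1a2 fell from 2872 ± 225 to 0.579 ± 0.193 CPM.

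Of 10 xenobiotic sensors and regulators, 6 were lower and 2 higher on day 14, where 32.1% and 37.4% of all genes were; with library sizes alone and on log2(TPM + 1), 5 were lower and 4 higher. The aryl hydrocarbon receptor Ahr rose from 12.8 ± 1.04 to 68.8 ± 5.54 CPM (adjusted p 1.24e-09), while the nuclear receptor Ppara fell from 78.5 ± 14.5 to 0.683 ± 0.111. The list of 14 genes of LXR and sterol control holds regulators of Abca1 and Abcg1 and also other genes, such as Apoe. Of the 14, 9 were lower and 2 higher on day 14, when Abca1 and Abcg1 were above isolation. With library sizes alone these were 5 and 6, so the split of this list turned with the scaling. The LXR alpha gene Nr1h3 fell from 48.1 ± 2.85 CPM on day 0 to 2.37 ± 0.239 on day 4 and 2.58 ± 0.174 on day 14 (adjusted p 5.32e-12). Apoe, an acceptor of the exported cholesterol, fell from 688 ± 124 to 6.92 ± 1.94 CPM (adjusted p 1.41e-09).

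The partners of the organelle members fell with them. Over all genes, 32.1% to 37.1% were lower and 33.1% to 38.9% higher than at isolation on the culture days. Of 13 peroxisomal partners, 12 were lower on days 1 and 14 and 13 on days 2, 4 and 7, with 7 lower and 1 higher on day 14 on log2(TPM + 1); the acyl-CoA synthetase Slc27a2 went from 4657 ± 735 to 5.33 ± 1.69 CPM. Of 15 mitochondrial heme and iron-sulfur genes, 14 were lower on day 1 and 13 on day 14 (12 and 9 on log2(TPM + 1), where 3 were higher on day 14), with the scaffold Iscu at 278 ± 6.53 CPM on day 0 and 76.9 ± 2.502 on day 14. The ribosome recycling partners rose, 8 of 8 on days 2 and 4, and on day 14 6 of 8 were higher and 1 lower (8 of 8 higher with library sizes alone), and the release factor Etf1 went from 91.01 ± 4.21 to 199 ± 11.3 CPM. Among ABC proteins with other symbols, the chloride channel Cftr rose on day 1, to 71.5 ± 5.98 CPM from 8.6 ± 1.16 (adjusted p 4.67e-07), and was at 10 ± 1.49 on day 14 (adjusted p 0.55). The peptide transporter Tap1 was at 9.86 ± 2.41 CPM on day 0 and 14.8 ± 0.864 on day 14 (adjusted p 0.178), and Tap2 at 28.7 ± 3.25 and 22.5 ± 1.33 (adjusted p 0.103). On log2(TPM + 1) all 3 were called higher on day 14.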

How the data were processed

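PolyA RNA of 18 libraries was analysed, 3 for each of days 0, 1, 2, 4, 7 and 14; day and replicate letter come from the labels. The authors deposited estimated counts per gene, as whole numbers, and TPM per gene; TPM keep no depth. Per the submitters' processing notes, RSEM 1.3.3, STAR 2.7.8a, FastQC 0.11.8 and cutadapt 2.3 were used with GRCm38. Strandedness and annotation release were not given in the sources used, and overlapping genes can share reads; 10 tested members share exon bases with another gene, whose counts over the 18 libraries sum to at most 275.

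Of 55426 entries, 5 reporter transgenes were left out. Counts were filtered (filterByExpr), scaled (TMM) and fitted with edgeR 4.0.16 in R 4.3.3, as 1 model of 6 day means without a replicate term. Each contrast used the quasi-likelihood F test with Benjamini-Hochberg adjustment over 18754 genes. An SE is the size of the log2 fold change divided by the square root of F. CPM use TMM-scaled library sizes. Where a day had 0 counts, folds are lower bounds from a floor of 3 counts over the group. TPM shares used means over libraries, and the Abcb1b share an exact permutation test. Positions come from GENCODE vM21, promoters from RefSeq. The model was tested on simulated data.

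Single results of 2 tested members and 2 partner genes are not reported here; counts, medians and shares include them. Of the other members, those reaching a daily mean of 10 CPM have every library's value in the text, other tested members with a call have a summary, and untested ones are named. Partner genes were counted by list; up to 3 per list, those with the smallest day 4 p and at least 10 CPM on some day, could be named. The members, roles and lists were chosen with earlier results of these data known.

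Alternatives were size factors from DESeq2, unscaled library sizes (library sizes alone), counts without the mitochondrially encoded genes, no filter, a replicate block, only the libraries compared, DESeq2 1.42.0, limma 3.58.1 on log2(TPM + 1) and log2(TPM + 0.1) (mean TPM of at least 0.5) and on log2(TPM + 1) without a filter, and each library left out. Replicate letters were checked for pairing by correlating the libraries' deviations from their day means. Only for days 2 and 4 were all 3 same-letter correlations over 0.1 (0.203, 0.16 and 0.293 for A, B and C). A pairing of these days was not tested and is not stated in the labels. Libraries of a day differed beyond sampling noise, with a chi-square of at least 7.03 per degree of freedom.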

Additional observations from a re-analysis of the deposited data

How the results depend on the processing

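Of 9921 comparisons of a reported member's log2 fold change with its value under an alternative, 9453 kept their direction and side of the threshold, 272 lost a call, 154 gained one and 42 turned in direction. All 42 arose with library sizes alone, which leaves out only the TMM scaling, or in limma on TPM, which also changes the measure and the test; those of Abca17, Abcb10, Abcc5, Abcf1 and Abca5 on day 1 arose in limma alone, and the cause was not tested. With library sizes alone, Abca2 was 0.45 on day 14 against day 0, Abca5 0.091 on day 2, Abcf2 0.017 on day 2 against day 1, and Abcf3 0.25, 0.051, 0.17, 0.031 and 0.33 on days 1, 2, 4, 7 and 14. In limma on log2(TPM + 1), with or without a filter unless stated, and on log2(TPM + 0.1), the values were 0.66 and 0.70 for Abca2 on day 14, 0.46 (with the filter) and 0.56 for Abca5 on day 1, 0.42 and 0.51 for Abca5 on day 2, and 0.00383 and 0.00389 for Abcb10 on day 4. They were 0.26 and 0.26, 0.068 and 0.070, 0.31 and 0.32, 0.14 and 0.15, and 0.50 and 0.51 for Abcf3 on days 1, 2, 4, 7 and 14, 0.075 and 0.076 for Abcf1 on day 14 against day 4, and 0.029 and 0.029 for Abcf2 on day 2 against day 1. On log2(TPM + 1), Abcc5 was 0.36 on day 14 against day 4 with the filter, and Abca17 0.039 on day 14 against day 0 without it.

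Counts of called members moved by over 1.5 times mainly in limma. On log2(TPM + 1) and log2(TPM + 0.1), 15 and 15 members were lower on day 4 and 14 and 14 on day 14, against day 0, 9 and 9 on day 2 against day 1, 6 and 6 on day 4 against day 2, 2 and 2 on day 14 against day 7, and 6 and 7 on day 14 against day 4. On day 7 against day 0, 14 were lower on log2(TPM + 1). With no filter in limma, 17 were higher on day 14 against day 0, 8 were higher on day 2 against day 1, 5 were lower on day 7 against day 4, 2 were lower on day 14 against day 7 and 5 were lower on day 14 against day 4. For day 14 against day 7, 4 were higher with no filter on low counts, and 2 were higher and 0 lower with only the libraries of those days. With each library left out in turn, members higher on day 2 against day 1 ranged from 2 to 5, with 2 without replicate A of day 1. On day 14 against day 7 the higher ranged from 4 to 6, with 4 without replicate A of day 14, and the lower from 2 to 4, with 2 without replicate A or C of day 14. The cause was not tested.

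By estimated counts, the Abcb1b share was 66.45%, 70.17% and 77.73% on days 0, 2 and 4; the efflux share was 40.35%, 49.1% and 47.23% on days 0, 4 and 14, the lipid share 21.67%, 7.498% and 15.19%, and the organelle share 13.43% and 14.19% on days 4 and 14. Counts weight long transcripts more than TPM do. The same member of each class was also left out on every day: Abcg2 for efflux, Abca3 for lipid and Abcd3 for organelle members. The efflux share was then 28.41% and 47.35% on days 0 and 14, with Abcc4, the top pump of day 14, kept. The lipid share was 7.537%, 2.733% and 7.351% on days 0, 4 and 14, and the organelle share 37.77% and 12.73% on days 0 and 14.

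With the replicate letter as a block, members higher and lower were 10 and 20 on day 1, 9 and 22 on day 2, 8 and 26 on day 4, 10 and 23 on day 7 and 11 and 22 on day 14, against day 0. For days 2 and 4, the only days with all 3 same-letter correlations over 0.1, the block gave the same counts of 14 higher and 11 lower. It changed no reported member's call between these days. Whether a letter stands for the same origin on different days is not stated in the labels and was not tested. Among all pairs of days, 8 of 45 correlations of same-letter deviations were over 0.1, with a range from -0.172 to 0.423. With 3 libraries a day, members under 1 CPM rest on few counts, and a level of 0 says only that none was detected at this depth.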
